A study of Mus musculus with 4 samples.

Results

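ST2-positive tissue repair Tregs are T cells that carry *Il1rl1* mRNA, which encodes the interleukin-33 receptor ST2, together with mRNA of the Treg transcription factors *Foxp3* or *Ikzf2* (Helios). They were chosen by their UMI counts in single-cell RNA-Seq tables: over 200 genes and under 5% mitochondrial UMIs per cell, at least 1 UMI of *Il1rl1*, of *Foxp3* or *Ikzf2* and of *Cd3e*, *Cd3d* or *Cd3g*, and none of *Siglech* or *Lyz2*. A UMI is a molecular tag that counts 1 captured mRNA molecule. The rule found 685 cells among 28018 cells that passed the cell filter (28247 in the deposited tables), 172 of them in the library labelled WT and 513 in that labelled dKO. The 7527 cells of the same gate with no *Il1rl1* UMI (1239 and 6288) served as the comparison and are called *Il1rl1* = 0 cells.

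The cells were hepatic CD4 T cells from male mice with diet-induced metabolic dysfunction-associated steatohepatitis (MASH). Mice of both genotypes ate a choline-deficient, high-fat diet of 60 kcal% fat with 0.1% methionine, so no library came from a healthy liver. The WT library came from wild-type mice and the dKO library from *Nr4a1* fl/fl *Nr4a2* fl/fl Cd4-Cre mice, in which Cre under the *Cd4* promoter removes the floxed genes in the T cell lineage, hence in CD8 T cells as well as in CD4 T cells. Each genotype was 1 library pooled from 2 mice, with a T cell receptor library from the same cells, so no comparison between genotypes could be tested, and all intervals below cover counting error within a library only.

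*Foxp3* is the lineage factor of Tregs, the CD4 T cells that restrain immune responses. A subset that lives in nonlymphoid tissue displays ST2 and responds to interleukin-33, an alarmin freed from damaged stromal and epithelial cells, and signals through MyD88 and NF-κB. These cells are known for GATA3, for high CD25 (*Il2ra*) and for amphiregulin (*Areg*), an epidermal growth factor receptor ligand that acts on parenchymal cells in wounded tissue.

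The level of the targeted genes did not follow the library labels. In ST2-positive cells *Nr4a1* stood at 1005 UMIs per 1000000 (CPM) in the library labelled WT and 3572 CPM in the library labelled dKO, and *Nr4a2* at 205 and 363 CPM. In *Il1rl1* = 0 cells *Nr4a1* stood at 784 and 1922 CPM and *Nr4a2* at 211 and 466 CPM. Both were thus higher, not lower, in the library labelled dKO. The counts do not separate exons, so they do not show whether the floxed exons were absent. *Nr4a3*, which was not targeted, stood at 420 and 456 CPM in ST2-positive cells. The 2 libraries, of 10556 and 17462 filtered cells, shared 242 cell barcodes, 8 of them of WT and 10 of dKO ST2-positive cells. The source of this overlap was not tested. ST2-positive cells were deeper than *Il1rl1* = 0 cells, with a median of 3006.5 against 2099 UMIs in the library labelled WT and 2028 against 1412 UMIs in the library labelled dKO, which raises the chance of seeing any gene and *Il1rl1* itself.

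The markers of the label were present, *Foxp3* not in every cell. A *Foxp3* UMI was seen in 69.2% of ST2-positive cells in the library labelled WT (95% exact binomial interval 61.7 to 76.0%) and in 62.8% in the library labelled dKO (58.4 to 67.0%). The rest, 53 and 191 cells, passed on *Ikzf2* alone. *Areg* was seen in 54.7% and 64.9% of ST2-positive cells and *Gata3* in 45.3% and 46.0%. *Cd8a* was seen in 0 of 172 and 0 of 513 cells, which allows shares of up to 2.12% and 0.717% (exact limits) for cells with a *Cd8a* UMI, not for cells that express the gene. The other CD8 chain, *Cd8b1*, was seen in 11 WT cells (6.40%, 3.24 to 11.2%) and 35 dKO cells (6.82%, 4.80 to 9.36%), against 1.86% (1.18 to 2.77%) and 3.05% (2.64 to 3.51%) of *Il1rl1* = 0 cells. All 4 CD8 T cell genes together (*Cd8a*, *Cd8b1*, *Eomes* and *Gzmk*) were lower in ST2-positive cells, at 42.3 and 58.8 CPM against 57.2 and 115 CPM, and their part in the results was not tested. *Cd4* was seen in 37.2% of WT and 71.2% of dKO ST2-positive cells, and *Il1rl1* = 0 cells differed between the libraries in the same way (39.5% and 71.2%). A single *Il1rl1* UMI made 103 of 172 and 333 of 513 cells members, and the most in any cell was 9 and 11.

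The gate made *Il1rl1* = 0 cells a different mixture in each library. *Foxp3* was seen in 29.0% of WT and 45.5% of dKO *Il1rl1* = 0 cells, and 71.0% and 54.5% carried *Ikzf2* alone. *Foxp3* itself, a gene of the rule, summed to 436 CPM in WT and 472 CPM in dKO ST2-positive cells, against 176 and 402 CPM in *Il1rl1* = 0 cells. For the genes called and for others where it changed the size, values with *Foxp3* required in both groups are given below.

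ST2-positive cells made up 12.2% of the gate in the library labelled WT (172 of 1411 cells, 10.5 to 14%) and 7.54% in the library labelled dKO (513 of 6801 cells, 6.93 to 8.20%), a difference of -4.65 percentage points (-6.57 to -2.86). Among cells with a *Foxp3* UMI the shares were 24.9% (119 of 478) and 10.1% (322 of 3184). Among cells with *Ikzf2* alone they were 5.68% and 5.28%, with intervals that overlap. Of all filtered cells, in contrast, ST2-positive cells were 1.63% in WT (172 of 10556, 1.40 to 1.89%) and 2.94% in dKO (513 of 17462, 2.69 to 3.2%), so the order of the libraries was opposite to that within the gate, which held 1411 and 6801 cells. Once every cell was thinned to 2000 UMIs the shares were 12.2% and 9.43%, after thinning to 1000 UMIs 7.01% and 5.23%, and with 1 cell kept per T cell receptor clonotype 14.5% and 11.7%. The difference was then smaller, at -2.79 (-5.90 to 0.05), -1.78 (-3.89 to 0.04) and -2.83 (-7.22 to 1.28) percentage points, and all of these intervals included 0. Cells with *Siglech*, a marker of plasmacytoid dendritic cells, and no *Cd3* UMI, which should lack ST2, held an *Il1rl1* UMI in 0.269% (median depth 1537 UMIs) and 0.228% (2901 UMIs).

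*Il1rl1* was not confined to the gate. In the library labelled WT 40.9% of all 421 *Il1rl1* cells were members, and in the library labelled dKO 66.5% of 772. T cells without *Foxp3*, *Ikzf2*, *Siglech* or *Lyz2* UMIs held another 172 and 109 *Il1rl1* cells, at a share of 2.85% and 2.35%, above the share in *Siglech* cells. These cells carried *Gata3* at 321 and 279 CPM, near the level in ST2-positive Tregs (246 and 286 CPM), but differed in the type 2 cytokines. *Il5*, the eosinophil growth factor, stood at 108 and 142 CPM in them against 13.0 and 16.4 CPM in ST2-positive Tregs, and *Il13* at 66.4 and 194 CPM against 1.63 and 9.68 CPM. The few *Il5* UMIs of the Tregs came from 2 and 3 cells, of which single cells held 7 of 8 and 15 of 22. Outside the gate the *Il5* values rested on 49 and 30 UMIs and those of *Il13* on 30 and 41 UMIs. How many cells held those UMIs was not counted, so they too may come from few cells. *Ctla4*, an inhibitory receptor of Tregs, was 272 and 757 CPM in the T cells outside the gate and 1374 and 1924 CPM in ST2-positive Tregs. In *Il1rl1* = 0 cells of the gate *Il5* had 0 and 3 UMIs. Several genes described below were as high or higher in the T cells outside the gate: *Pparg* stood there at 168 and 99.4 CPM (58.5 and 58.1 CPM in ST2-positive Tregs), *Ltb4r1* at 166 and 175 CPM (84.6 and 153 CPM) and *Rora* at 1124 and 767 CPM (997 and 747 CPM). *Areg* stood there at 518 and 947 CPM, below ST2-positive Tregs but above *Il1rl1* = 0 cells of the gate in both libraries.

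ST2-positive cells carried more *Cxcl2*, *Il2ra*, *Gata3*, *Cd83* and *Hopx* than *Il1rl1* = 0 cells in both libraries, and less *Ctsw*. Across 3190 genes with at least 50 CPM in a group of each library, 13 were at least 2-fold higher in both libraries, 0.408% of the genes, and 2 were at least 2-fold lower in both, 0.0627%. The median log2 ratio of all tested genes was 0.010 in WT and -0.034 in dKO. Of all tested genes 27.6% were above 0 and 32.1% below 0 in both libraries. The ratios compare summed cells of 1 library with each other and are a description, since *Il1rl1* chose the cells. *Pparg*, *Ky* and *Plcl1* in both libraries and *Frmd5* and *Ltb4r1* in WT reached 50 CPM in ST2-positive cells alone, and *Xcl1* in *Il1rl1* = 0 cells alone, so that these could be tested only through the group where they were high. At 100 CPM 9 genes were called higher and 1 lower, without *Pparg*, *Ky*, *Plcl1*, *Ltb4r1* and *Xcl1*. With *Foxp3* required in both groups 1 gene, *Cxcl2*, stayed past 2-fold in both libraries, while all 13 kept their direction in both. With 1 cell kept per clonotype and group, which leaves only cells with a paired receptor, 3 were called higher and 4 lower, and the dKO log2 ratios of *Pparg* and *Arl5c* were 0.39 and 0.38. *Gata3* (0.84 in WT and 0.88 in dKO), *Cd83* and *Hopx* were then not called higher and *Ctsw* was not called lower. All 13 and 2 genes kept their direction in both libraries. With at least 2 *Il1rl1* UMIs 15 were called higher and 17 lower.

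**Figure D1:**
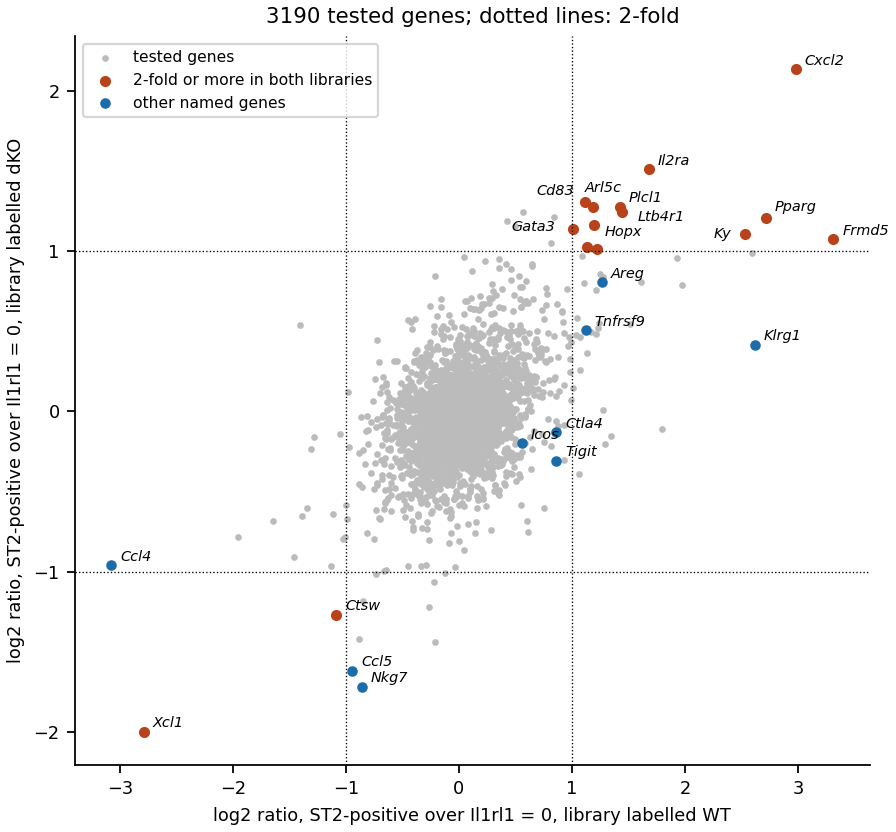
Each grey point is 1 of 3190 tested genes, placed by its log2 ratio of ST2-positive over *Il1rl1* = 0 cells in the library labelled WT (x axis) and dKO (y axis), and dotted lines mark 2-fold. Red points are the 13 genes higher and 2 lower in both libraries, with names for those the text describes and with *Cxcl2* farthest to the upper right, and blue points are other named genes, of which *Klrg1*, *Ctla4*, *Icos* and *Tigit* stand far from equal ratios.

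*Cxcl2*, a chemokine that draws neutrophils, showed the largest difference of the tested genes, ranked by the library with the smaller ratio. It stood at 460 CPM in WT and 258 CPM in dKO ST2-positive cells, against 58.4 and 58.7 CPM in *Il1rl1* = 0 cells. The log2 ratios were 2.98 (2.71 to 3.25) and 2.14 (1.95 to 2.33), and with *Foxp3* required 1.85 and 2.26. The 283 WT UMIs lay in 29 of 172 cells, with 62.2% of them in the 5 highest, whereas the 347 dKO UMIs lay in 96 of 513 cells, with 24.8% in the 5 highest. Without those 5 cells of each library the log2 ratios were 1.66 and 1.75. Neutrophil markers moved with it, at 34.2 and 31.3 CPM summed over 8 genes in ST2-positive cells and 2.67 and 10.5 CPM in *Il1rl1* = 0 cells, and 5 WT and 4 dKO genes of the list were at 0 in ST2-positive cells. The marker UMIs came from 3 ST2-positive cells in each library, and those cells held 0 of 283 and 2 of 347 *Cxcl2* UMIs. In *Il1rl1* = 0 cells the marker UMIs came from 7 WT cells with 0 of 197 *Cxcl2* UMIs and 30 dKO cells with 70 of 682.

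The *Cxcl2* gene lies on chromosome 5 at 90903871 to 90905938 (GRCm38, plus strand, GENCODE M21). Its upstream sequence is shown because NF-κB acts below ST2 and *Cxcl2* is a known NF-κB target. The sequence is printed up to the base before the GENCODE start, and the RefSeq start lies 28 bases further downstream, at 90903899. Capitals mark the only match to the κB letters GGAATTTCC (or GGAAATTCC on the other strand), whose first base is 68 bases before the GENCODE start and 96 before the RefSeq start. Of 27025 genes with a RefSeq promoter sequence 0.344% held these letters in the 250 bases before a start, and of 9 of the 13 higher genes that had such a sequence 1 did. The match is a description of the letters and shows no binding.
Cxcl2 upstream, chr5:90903649-90903870, GRCm38.p6, plus strand: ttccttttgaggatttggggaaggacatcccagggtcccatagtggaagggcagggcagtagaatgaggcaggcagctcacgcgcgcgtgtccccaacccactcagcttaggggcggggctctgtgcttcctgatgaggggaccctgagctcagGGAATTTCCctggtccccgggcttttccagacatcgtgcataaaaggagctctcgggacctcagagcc

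Of 8 tested genes of the interleukin-33 receptor signalling list 0 were called, 6 were above 0 and 2 below 0 in both libraries, with medians of 0.25 and 0.29. *Nfkbia*, which is on the immediate early list instead, encodes the inhibitor IκBα and is itself induced by NF-κB. It stood at 2587 and 3122 CPM in ST2-positive cells against 1651 and 1649 CPM (log2 ratios 0.65 and 0.92). In the *Il1rl1* T cells outside the gate *Nfkbia* stood at 3192 and 2769 CPM. *Nfkb1*, the p105/p50 subunit, stood at 873 and 919 CPM against 557 and 488 CPM (0.65 and 0.91). *Irak2*, a kinase of the Myddosome, was the example on the other side (-0.20 and -0.19).

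*Il2ra*, the high-affinity interleukin-2 receptor chain CD25, stood at 387 and 383 CPM in ST2-positive cells of the WT and dKO libraries and at 121 and 134 CPM in *Il1rl1* = 0 cells. The levels were alike between libraries within each group, and the intervals of the groups with and without *Il1rl1* did not overlap. The log2 ratios were 1.68 (1.45 to 1.92) and 1.51 (1.37 to 1.66), or 0.90 and 1.22 with *Foxp3* required. In the Treg identity list it was the only gene called of 12 tested, with 6 above 0, 2 below 0 and 4 of opposite sign, and medians of 0.69 in WT and 0.11 in dKO. *Ctla4* was among the 4, at 1374 against 757 CPM in WT and 1924 against 2106 CPM in dKO. *Tnfrsf9* (4-1BB), a costimulatory receptor of activated Tregs, stood at 532 against 244 CPM and 1330 against 937 CPM (1.12 and 0.51, or 0.49 and 0.29 with *Foxp3* required). *Tnfrsf4* (OX40) stood at 933 against 471 CPM and 2182 against 1840 CPM (0.99 and 0.25, or 0.41 and 0.07).

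Among transcription factors of tissue Tregs, 2 of 13 tested were called, *Pparg* and *Gata3*, with 7 above 0 and 2 below 0 in both libraries and medians of 0.25 and 0.25. *Gata3*, the type 2 factor, stood at 246 and 286 CPM against 122 and 130 CPM, with log2 ratios of 1.01 (0.73 to 1.28) and 1.14 (0.97 to 1.30). With *Foxp3* required they were 0.79 and 0.87. *Pparg*, the lipid-sensing receptor of adipose Tregs, was rare, at 58.5 and 58.1 CPM against 8.89 and 25.1 CPM (2.72 and 1.21, with 36 and 78 UMIs in ST2-positive cells), and passed the 50 CPM minimum through ST2-positive cells alone, so that its call does not count as support. With *Foxp3* required the ratios were 2.40 and 0.99. *Rora*, which guides tissue lymphocytes, stood at 997 and 747 CPM against 566 and 360 CPM (0.82 and 1.05, or 0.60 and 0.87 with *Foxp3* required), and *Batf*, an AP-1 factor of tissue Tregs, at 164 and 302 CPM against 124 and 213 CPM (0.41 and 0.50). *Tbx21*, the Th1 factor, went the other way, at 50.4 and 46.2 CPM against 111 and 90.1 CPM (-1.13 and -0.97, or -0.67 and -0.98). *Hopx*, a homeodomain protein found in induced Tregs, was not on the list and was called, at 1163 and 3010 CPM against 509 and 1343 CPM (1.19 and 1.16, or 0.86 and 0.83).

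*Plcl1*, *Ltb4r1*, *Arl5c*, *Cd83*, *Ky* and *Frmd5* were also called higher. *Ltb4r1*, a receptor for the lipid chemoattractant leukotriene B4, stood at 84.6 and 153 CPM against 31.1 and 64.4 CPM (1.44 and 1.24, or 0.42 and 1.13 with *Foxp3* required). *Cd83*, an activation protein that sits on Tregs and dendritic cells, stood at 332 and 354 CPM against 153 and 143 CPM (1.12 and 1.31, or 0.46 and 1.18). *Frmd5* was far apart in WT, at 221 against 22.2 CPM (3.31), and less so in dKO, at 150 against 71.4 CPM (1.07), and with *Foxp3* required the ratios were 2.40 and 0.79. Those of *Plcl1*, *Arl5c* and *Ky* were then 0.33, 0.72 and 1.43 in WT and 1.04, 0.87 and 0.87 in dKO. *Ky* and *Pparg* had the same shape, with WT log2 ratios of 2.53 and 2.72 and dKO ratios of 1.11 and 1.21. Between libraries, the dKO over WT log2 ratio of *Ky* and *Pparg* was 0.34 (-0.20 to 0.91) and -0.01 (-0.60 to 0.60) in ST2-positive cells, with intervals that include 0, and 1.76 and 1.5 in *Il1rl1* = 0 cells. Just inside the 2-fold limit lay *Gata3* (nearer ratio 1.01), and just outside it *Lgmn*, *Stx11* and *Pcyt1a* (0.99, 0.97 and 0.96). On the lower side *Ctsw* was just inside (-1.09) and *Tbx21* just outside (-0.97).

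**Figure D2:**
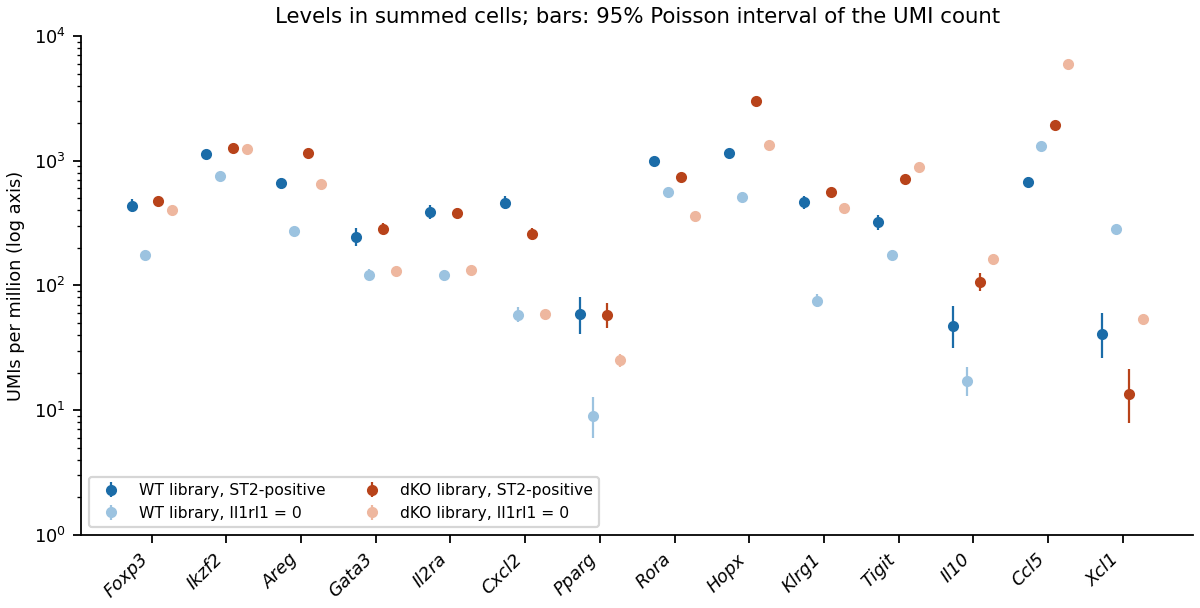
Level of 14 genes in UMIs per 1000000 on a log axis, for ST2-positive (dark) and *Il1rl1* = 0 cells (pale) of the libraries labelled WT (blue) and dKO (red), with 95% Poisson intervals of the summed count as bars. *Gata3*, *Il2ra* and *Cxcl2* lie high in both ST2-positive groups and low in both others, whereas *Klrg1* is low in WT *Il1rl1* = 0 cells alone and *Tigit* and *Il10* are lowest there.

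*Areg*, the growth factor these cells are known for, stood at 660 CPM in WT and 1143 CPM in dKO ST2-positive cells, and at 274 and 653 CPM in *Il1rl1* = 0 cells. Its log2 ratio was 1.27 (1.10 to 1.44) in WT and 0.81 (0.73 to 0.89) in dKO, or 0.56 and 0.59 with *Foxp3* required. With 1 cell kept per clonotype and group it was 1.47 and 0.26, so the dKO ratio was far below its interval from all cells. The dKO *Il1rl1* = 0 cells were as high as the WT ST2-positive cells, 653 against 660 CPM. Of 6 tested repair and growth factor genes 0 were called, 5 were above 0 in both libraries and 1, *Odc1*, had opposite signs. *Furin*, a protease that matures growth factors, stood at 112 and 74.4 CPM against 65.8 and 46.9 CPM. *Tgfb1* hardly differed, at 198 and 246 CPM against 191 and 227 CPM. *Penk*, the enkephalin precursor made by some tissue Tregs, was too low in WT to be tested, at 45.5 against 26.1 CPM, and stood at 210 against 105 CPM in dKO, where 5 cells held 52.5% of its UMIs.

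*Areg* was also more frequent per cell at equal depth. With every cell reduced at random to 2000 UMIs, a step that kept 120 of 172 WT and 263 of 513 dKO ST2-positive cells, 43.3% (34.3 to 52.7%) and 56.7% (50.4 to 62.7%) held an *Areg* UMI, against 16.4% (13.6 to 19.4%) of 654 and 32.8% (30.6 to 35.0%) of 1855 *Il1rl1* = 0 cells. Unthinned shares were 54.7% and 64.9% against 21.3% and 29.8%. In *Siglech* cells without *Cd3*, taken as background, thinned shares were 4.56% and 3.58%. Among cells with *Foxp3* the thinned shares were 51.2% and 57.9% against 26.7% and 39.2%. Thinned *Il2ra* was seen in 40.0% and 42.2% against 14.8% and 17.5%, and *Cxcl2* in 17.5% and 20.9% against 2.60% and 3.72%. *Gata3* was seen in 31.7% and 39.2% against 21.9% and 18.5%, where the WT intervals overlapped.

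**Figure D3:**
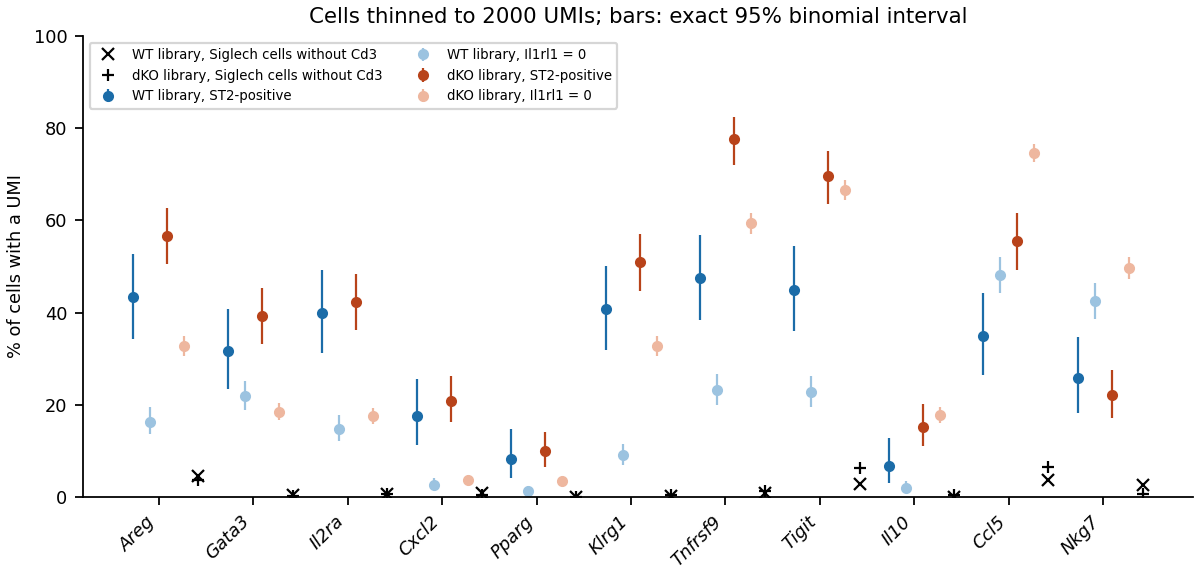
Share of cells (% on a linear axis) with at least 1 UMI of 11 genes after thinning to 2000 UMIs per cell, for ST2-positive and *Il1rl1* = 0 cells of each library, with exact 95% binomial intervals, and crosses for *Siglech* cells without *Cd3* as background. *Areg*, *Il2ra* and *Cxcl2* were more frequent in ST2-positive cells of both libraries, *Ccl5* and *Nkg7* less frequent, while the *Tigit* intervals lay apart in WT and overlapped in dKO and the *Il10* intervals overlapped in both.

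*Areg* was seen in ST2-positive cells with and without *Klrg1*. In WT it was seen in 57.1% of 49 ST2-positive cells with *Klrg1* and 33.8% of 71 without (thinned cells, intervals 42.2 to 71.2% and 23.0 to 46.0%), and in dKO in 59.7% of 134 and 53.5% of 129. *Il2ra* was seen in 26 of 52 WT ST2-positive cells with *Areg* and 32.4% of those without, and in 47.7% and 35.1% in dKO. These intervals overlapped in all 4 comparisons. In *Il1rl1* = 0 cells, where *Areg* was rarer, it was seen in 40.7% of WT cells with *Klrg1* against 13.9% without, and in 38.7% against 29.9% in dKO.

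Of 8 tested genes on the list of suppressive mediators and checkpoints 1, *Cd83*, was called, 5 were above 0 in both libraries and 3 had opposite signs, with medians of 0.68 in WT and 0.02 in dKO. *Klrg1*, a marker of terminally differentiated Tregs, stood at 463 and 559 CPM in ST2-positive cells, but at 75.6 CPM in WT and 418 CPM in dKO *Il1rl1* = 0 cells (log2 ratios 2.62 and 0.42, and 1.58 and 0.24 with *Foxp3* required). *Tigit*, an inhibitory receptor, stood at 320 against 177 CPM in WT and 718 against 888 CPM in dKO (0.86 and -0.31). *Icos*, a costimulator, stood at 942 against 640 CPM and 625 against 718 CPM (0.56 and -0.20). *Il10*, the inhibitory cytokine, stood at 47.2 against 17.2 CPM in WT and 107 against 161 CPM in dKO (1.46 and -0.59), below the limit for testing in WT, where 5 cells held 75.9% of its 29 UMIs. *Pdcd1* (PD-1) was higher in both, at 281 against 169 CPM and 342 against 221 CPM (0.74 and 0.63).

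*Xcl1* and *Ctsw* were the 2 genes called lower in ST2-positive cells. Of 5 tested genes on the list of effector cytokines of helper T cells 1, *Xcl1*, was called lower, 4 were below 0 in both libraries, and the medians were -0.94 and -0.96. *Xcl1*, a chemokine of cytotoxic lymphocytes, stood at 40.7 and 13.4 CPM against 281 and 53.6 CPM (-2.79 and -2.0). Its WT comparison rested in part on few cells, since 5 of the 1239 *Il1rl1* = 0 cells held 31.8% of the UMIs. With *Foxp3* required the ratios were -1.49 and -0.20, and as it reached 50 CPM only where it was high, its call does not count as support. *Ctsw*, a protease of cytotoxic granules, stood at 132 and 96.8 CPM against 280 and 233 CPM (-1.09 and -1.27, or -0.83 and -1.26). *Ccl5* stood at 677 and 1932 CPM against 1302 and 5942 CPM (-0.94 and -1.62, or -0.59 and -1.21 with *Foxp3* required), and *Nkg7*, a granule membrane protein, at 241 and 243 CPM against 437 and 802 CPM (-0.86 and -1.72, or -0.26 and -1.53). *Il17a* was alike in both, at 79.7 and 103 CPM against 84.2 and 99.7 CPM.

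On the homing, recirculation and proliferation lists no gene was called. Of 15 tested homing genes 0 were called, 6 were above 0 and 4 below 0 in both libraries, with medians of 0.04 and 0.14. *Ccr8*, a receptor of tissue Tregs, stood at 268 and 603 CPM against 167 and 519 CPM, and *Cxcr3*, a receptor of Th1-type cells, at 97.6 and 141 CPM against 194 and 224 CPM. Of 11 tested recirculation genes 0 were called, 3 were above 0 and 6 below 0. *Tcf7*, a factor of naive and memory T cells, stood at 132 and 32.0 CPM against 209 and 64.0 CPM. With *Foxp3* required it stood at 125 and 27.5 CPM against 131 and 41.0 CPM, so the WT levels were then alike. Of 12 tested proliferation genes 0 were called and 9 were above 0 in both, with medians of 0.15 and 0.62. *Mki67* stood at 270 and 160 CPM against 210 and 114 CPM. Of 18 tested immediate early genes 0 were called, 11 were above 0 and 5 below 0, with medians of 0.18 and 0.16. Of 7 tested lipid handling genes 1 was called, *Pparg*, which the 50 CPM minimum kept through ST2-positive cells alone. *Dgat2*, which makes triglyceride, was below the limit for testing in WT and stood at 40.7 and 123 CPM against 11.9 and 31.4 CPM (1.78 and 1.97).

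Markers of other cells were summed over each list. The 9 macrophage and monocyte genes, of which the rule itself holds *Lyz2* at 0, summed to 87.8 CPM in WT and 60.3 CPM in dKO ST2-positive cells (58.4 and 80.9 CPM in *Il1rl1* = 0 cells), the 6 B cell genes to 273 and 220 CPM (256 and 178 CPM) and the 8 hepatocyte genes to 6.51 and 2.23 CPM (5.93 and 3.87 CPM). The 9 mast cell and basophil genes summed to 11.4 and 5.95 CPM, with 7 and 8 of them at 0. NK and NKT genes summed to 285 and 267 CPM against 648 and 849 CPM, lower in ST2-positive cells, most of it *Nkg7*. Genes of group 2 innate lymphoid cells, which also display ST2, summed without *Areg* to 39.0 and 55.1 CPM against 30.2 and 25.9 CPM, and 2 of those 7 were at 0 in ST2-positive cells. Cells with 2 or more productive TRB chains made up 5.23% and 2.14% of ST2-positive and 3.31% and 0.573% of *Il1rl1* = 0 cells. Without these and the cells with the highest doublet scores, 20 genes were called higher and 10 lower, among them all 13 and 2 genes called without this step.

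ST2-positive cells on *Ikzf2* alone resembled those with *Foxp3* in CD25. *Il2ra* stood at 364 CPM in the 53 WT and 364 CPM in the 191 dKO cells with *Ikzf2* alone, against 396 and 390 CPM in those with *Foxp3*, and at 84.1 and 101 CPM in *Il1rl1* = 0 cells with *Ikzf2* alone. *Areg* stood at 404 against 763 CPM in WT, lower without a *Foxp3* UMI, and at 1222 against 1109 CPM in dKO. *Klrg1* stood at 194 against 571 CPM in WT and 542 against 566 CPM in dKO. Cells with 2 or more *Il1rl1* UMIs carried *Cxcl2* at 691 and 331 CPM against 275 and 206 CPM in those with 1, and *Klrg1* at 607 and 587 CPM against 349 and 539 CPM. *Areg* differed less between them (695 and 1174 CPM against 633 and 1120 CPM). In WT 5 of the 172 ST2-positive cells held 62.2% of the *Cxcl2* UMIs, so the WT difference in *Cxcl2* may rest on few cells.

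The ST2-positive cells of the 2 libraries differed from each other, as did the *Il1rl1* = 0 cells. Of 3645 genes with at least 50 CPM in ST2-positive cells of either library, 97 (2.66%) were at least 2-fold higher and 147 (4.03%) at least 2-fold lower in the library labelled dKO. With 1 library per genotype this compares 2 libraries. The 8 highest were *Gdpd3*, *Ccl4*, *Arrdc4*, *BC018473*, *Tmem158*, *Mt1*, *Ctsh* and *Gas2*, and the 8 lowest *Gm20186*, *Mgst2*, *Cd40lg*, *Tmem176a*, *Fasl*, *Lax1*, *Evl* and *Cdk8*. *Gdpd3*, a lysophospholipase D, had 0 UMIs in WT and 669 CPM in dKO ST2-positive cells, at least 7.10 higher on the log2 scale, and 0 UMIs and 690 CPM in *Il1rl1* = 0 cells. *BC018473*, an antisense transcript, likewise had 0 UMIs in both WT groups and 50.6 and 51.9 CPM in dKO. *Cdk8*, a kinase of the Mediator complex, stood at 8366 and 1903 CPM in ST2-positive cells and 6977 and 2116 CPM in *Il1rl1* = 0 cells. *Cd40lg*, the helper ligand CD40L, stood at 286 and 37.2 CPM and at 364 and 53.6 CPM. The log2 ratios of dKO over WT in ST2-positive and *Il1rl1* = 0 cells were -2.14 and -1.72 for *Cdk8* and -2.94 and -2.76 for *Cd40lg*, whereas those of *Gdpd3* and *BC018473* are bounds only.

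Other genes differed more between libraries in 1 of the groups. *Ccl4*, a chemokine of activated lymphocytes, stood at 17.9 and 310 CPM in WT and dKO ST2-positive cells and at 151 and 603 CPM in *Il1rl1* = 0 cells (log2 ratios 4.11 and 2.0). *Klrg1* differed by 0.27 (0.07 to 0.47) in ST2-positive cells and by 2.47 in *Il1rl1* = 0 cells, *Il10* by 1.18 (0.60 to 1.81) and 3.23, and *Tigit* by 1.16 (0.94 to 1.39) and 2.33. With *Foxp3* required these were -0.01 (-0.23 to 0.21) and 1.33 for *Klrg1*, 0.87 (0.23 to 1.55) and 2.44 for *Il10*, and 1.09 (0.83 to 1.35) and 1.99 for *Tigit*. *Areg* differed by 0.79 (0.63 to 0.95) and 1.25, or by 0.54 and 0.51 with *Foxp3* required, and by 0.06 in ST2-positive cells with 1 cell kept per clonotype. *Gata3* was alike between libraries in both groups (0.22, -0.06 to 0.50, and 0.09), as was *Il2ra* (-0.02, -0.24 to 0.21, and 0.15). *Nr4a1* differed by 1.83 and 1.29. *Hopx* was higher in dKO by 1.37 and 1.40. Of 13 tested recirculation genes 7 were at least 2-fold lower in dKO ST2-positive cells and 0 higher, with a median of -1.02 (-1.26 in *Il1rl1* = 0 cells) against -0.056 for all tested genes. Of 12 suppressive mediators 6 were at least 2-fold higher and 0 lower, with a median of 0.73 (1.43 in *Il1rl1* = 0 cells).

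**Figure D4:**
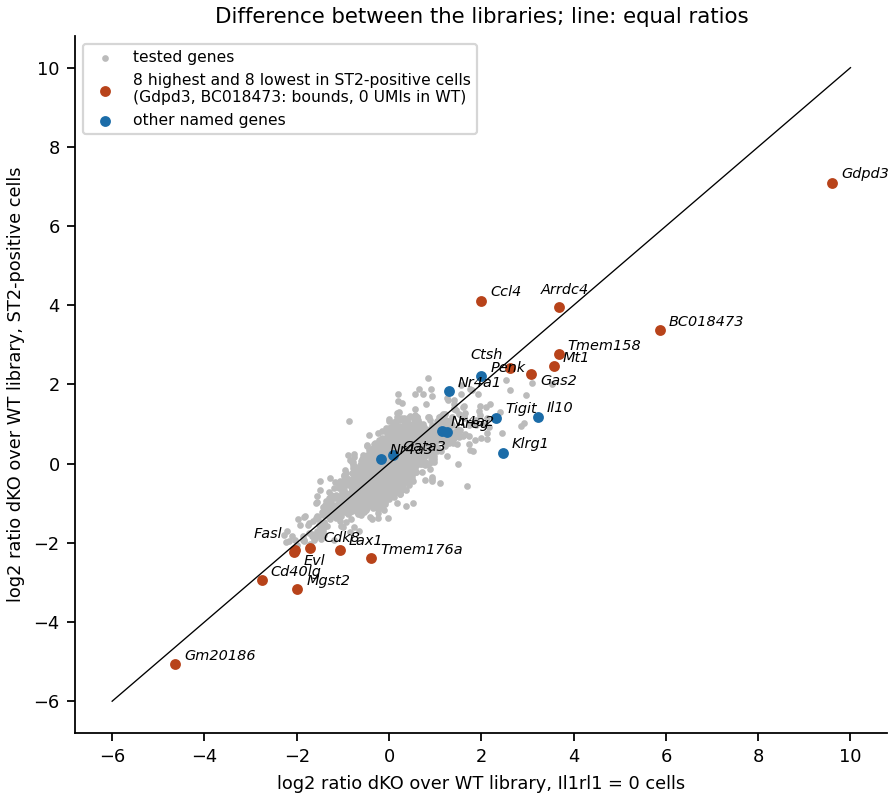
Log2 ratio of the library labelled dKO over the library labelled WT in *Il1rl1* = 0 cells (x axis) and ST2-positive cells (y axis) for 3645 tested genes (grey), with the line of equal ratios. Red points are the 8 highest and 8 lowest in ST2-positive cells, of which *Gdpd3* and *BC018473* are lower bounds from 0 WT UMIs, and *Klrg1*, *Il10* and *Tigit* (blue) lie under the line.

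T cell receptors, which the rule did not use, were paired (TRA and TRB) in 67 of 172 WT and 128 of 513 dKO ST2-positive cells and gave 63 and 101 clonotypes. Clonotypes were defined by V gene, J gene and nucleotide junction of both chains. In clonotypes of 2 or more cells were 18 of 67 WT cells (26.9%, 16.8 to 39.1%) and 56 of 128 dKO cells (43.8%, 35.0 to 52.8%). The shares of *Il1rl1* = 0 cells were 30.3% of 399 (25.9 to 35.1%) and 55.9% of 1176 (53.0 to 58.7%). In WT the 2 groups overlapped, and in dKO the ST2-positive cells were less often in such clonotypes, with intervals just apart. Both groups had more cells in such clonotypes in the library labelled dKO, which was also the larger library. With *Foxp3* required the shares were 25.5% and 17% in WT and 39.0% and 53.9% in dKO, so the WT order turned and the dKO intervals (28.4 to 50.4% and 49.9 to 57.9%) overlapped as well. No clonotype occurred in both libraries. Invariant NKT receptors (TRAV11 with TRAJ18) were seen in 1 WT and 0 dKO ST2-positive cells and in 14 and 19 *Il1rl1* = 0 cells.

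**Figure D5:**
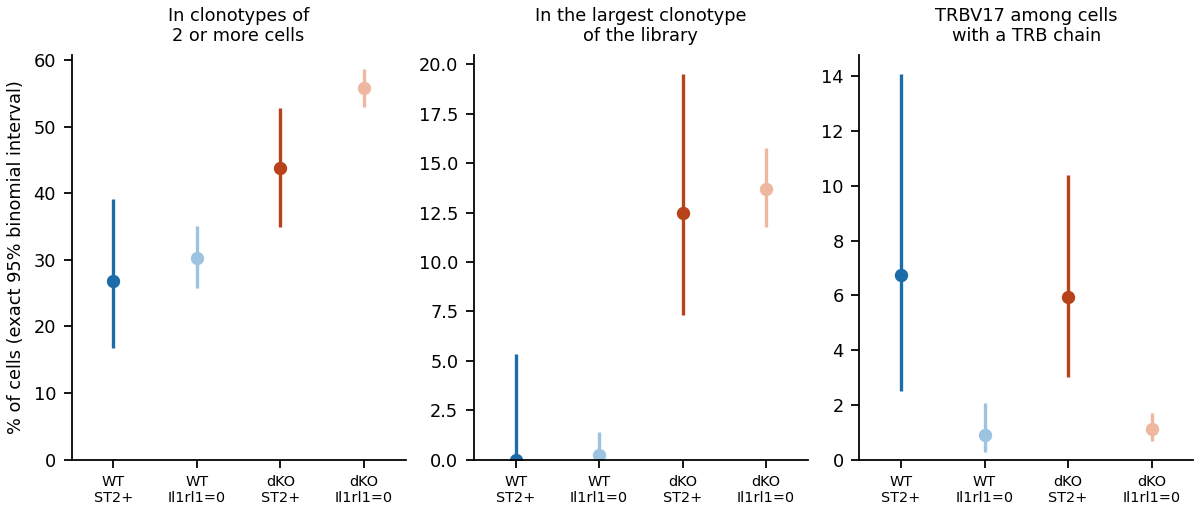
Percent of cells with exact 95% binomial intervals, for ST2-positive and *Il1rl1* = 0 cells of each library, that belong to clonotypes of 2 or more cells (left), to the largest clonotype of their library (middle) or use TRBV17 (right). TRBV17 was at 6.74% and 5.95% in ST2-positive cells and near 1% in *Il1rl1* = 0 cells, where 0.898% and 1.12% used it.

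Clonal relatives of ST2-positive cells were counted within the gate. Over all of them, 38.5% in WT and 9.60% in dKO were ST2-positive, against 14.4% and 9.82% of all gate cells with a paired receptor. In WT 11 clonotypes with an ST2-positive cell had 2 or more cells in the gate, and 10 of the 26 relatives counted from each ST2-positive cell were ST2-positive, all from 3 clonotypes with 2 or more ST2-positive cells. The dKO value was taken over 2916 relatives. The largest dKO clonotype alone had 281 cells, 177 of them in the gate, and its 16 ST2-positive cells were 9.04% of those (5.26 to 14.3%). Without it, a choice made after seeing the data, 40.0% of 100 dKO relatives were ST2-positive. Outside it lay 112 ST2-positive and 1015 *Il1rl1* = 0 cells with a paired receptor. In dKO 8 clonotypes, the largest included, had 2 or more ST2-positive cells, and the TRBV17 clonotype described below had 5 ST2-positive cells. A relative was counted once for each ST2-positive cell of its clonotype. Clonotypes with more ST2-positive cells, such as the TRBV17 clonotype, thus weighed more in the shares of relatives, which carry no interval. Of 63 WT and 101 dKO clonotypes with an ST2-positive cell, 8 and 21 also held an *Il1rl1* = 0 cell. Detection of *Il1rl1* is incomplete, so a relative with no *Il1rl1* UMI may still carry the receptor.

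The junctions of the clonotypes with most ST2-positive cells are shown since they identify these clones. Capitals mark the bases between the start shared by most junctions of the same V gene and the end shared by most of the same J gene in these data. The largest dKO clonotype joined TRAV6-1 to TRAJ30 and TRBV13-1 to TRBJ2-4. The dKO clonotype with 5 ST2-positive cells among its 8 cells (1 was an *Il1rl1* = 0 cell) joined TRAV13-1 to TRAJ18 and TRBV17 to TRBJ1-2. Another dKO clonotype, TRAV14-3 with TRAJ53 and TRBV15 with TRBJ2-2, had 3 cells, all ST2-positive, and the first WT clonotype, TRAV8D-1 with TRAJ52 and TRBV1 with TRBJ2-1, also had 3 cells, all ST2-positive.
dKO largest clonotype, TRA: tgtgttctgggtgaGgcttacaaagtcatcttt
dKO largest clonotype, TRB: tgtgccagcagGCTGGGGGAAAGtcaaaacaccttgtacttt
dKO TRBV17 clonotype, TRA: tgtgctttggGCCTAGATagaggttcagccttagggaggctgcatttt
dKO TRBV17 clonotype, TRB: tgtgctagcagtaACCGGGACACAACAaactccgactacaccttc
dKO TRBV15 clonotype, TRA: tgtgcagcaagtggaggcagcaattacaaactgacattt
dKO TRBV15 clonotype, TRB: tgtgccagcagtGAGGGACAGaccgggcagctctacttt
WT TRBV1 clonotype, TRA: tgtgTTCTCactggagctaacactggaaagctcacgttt
WT TRBV1 clonotype, TRB: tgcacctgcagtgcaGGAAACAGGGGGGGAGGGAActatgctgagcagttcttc

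TRBV17 was singled out after its values were seen. Of cells with a TRB chain 6 of 89 WT (6.74%, 2.51 to 14.1%) and 11 of 185 dKO ST2-positive cells (5.95%, 3.01 to 10.4%) used it, against 5 of 557 (0.898%, 0.292 to 2.08%) and 21 of 1873 *Il1rl1* = 0 cells (1.12%, 0.695 to 1.71%). The paired cells belonged to 6 WT clonotypes and 4 dKO clonotypes, and 7 of the 11 dKO cells carried the TRB junction of the TRBV17 clone above. Without that junction 4 of 178 dKO ST2-positive cells (2.25%, 0.616 to 5.65%) and 18 of 1870 *Il1rl1* = 0 cells (0.963%, 0.571 to 1.52%) used TRBV17, with intervals that overlap. Without the most common WT TRBV17 junction the WT share was 4.60% (4 of 87, 1.27 to 11.4%) against 0.898% (0.292 to 2.08%), and these intervals overlap too. With *Foxp3* required the WT shares were 4.84% (1.01 to 13.5%) and 0.654% (0.0165 to 3.59%), with intervals that overlap, and the dKO shares 6.96% (3.05 to 13.2%) and 0.983% (0.450 to 1.86%). The TRBV17 junctions below come from other ST2-positive cells and show that the middle differed in length and bases. The WT junction with TRBJ2-7 was found in 2 cells with different TRA chains.
dKO TRBV17 with TRBJ2-5: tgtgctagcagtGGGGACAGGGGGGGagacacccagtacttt
dKO TRBV17 with TRBJ1-1: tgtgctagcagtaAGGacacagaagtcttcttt
WT TRBV17 with TRBJ2-7: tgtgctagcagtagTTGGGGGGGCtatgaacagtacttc
WT TRBV17 with TRBJ2-2: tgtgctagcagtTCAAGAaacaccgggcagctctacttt

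Within the largest dKO clonotype, where all cells share a receptor, levels were also compared between ST2-positive cells and their *Il1rl1* = 0 relatives. The ST2-positive cells were deeper, at a median of 2881.5 against 1393 UMIs, and the source of the differences was not tested. *Areg* stood at 912 CPM (667 to 1216) in the 16 ST2-positive and 254 CPM (201 to 316) in the 161 *Il1rl1* = 0 cells, from 46 and 79 UMIs. *Cxcl2* stood at 614 CPM (417 to 872) and 41.8 CPM (22.2 to 71.4), *Gata3* at 476 CPM (305 to 708) and 132 CPM (94.6 to 179), and *Il2ra* at 277 CPM (152 to 466) and 73.9 CPM (46.9 to 111). *Nkg7* stood at 39.6 and 694 CPM and *Ccl5* at 852 and 3818 CPM. *Klrg1* was high in both, at 1070 CPM (804 to 1396) and 1588 CPM (1451 to 1734), and lower in the ST2-positive cells. *Il1rl1* = 0 cells that shared a dKO clonotype with an ST2-positive cell carried *Areg* at 269 CPM, below the 586 CPM of the other *Il1rl1* = 0 cells with a paired receptor, and *Klrg1* at 1261 against 206 CPM. Most of those relatives were of the largest clonotype.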

How the data were processed

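Hepatic CD4 T cells of 2 mice per genotype were pooled into 1 library per genotype and sequenced with the 10X 5′ chemistry, with T cell receptor libraries from the same cells. The authors made the deposited UMI counts per gene and cell with Cell Ranger 7.0.1 on mm10, and the deposited receptor tables hold counts of UMIs per contig. Gene names and positions came from the tables and GENCODE M21, in which 32158 of 32285 genes were found.

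Cells with over 200 genes and under 5% mitochondrial UMIs were kept. Counts were summed over the cells of each group and scaled to UMIs per 1000000 (CPM). A gene was tested with at least 50 CPM in either group and 10 UMIs in both groups together, in each library for the comparison by *Il1rl1*, and called at a 2-fold ratio, there in both libraries. Genes of the rule and ribosomal, mitochondrial, T cell receptor and immunoglobulin genes were not tested. With 1 library per genotype no p-value was computed. Intervals are 95%, exact binomial for shares and conditional on the summed counts for ratios, and cover counting error only, not the variation between cells or mice. A count of 0 was set to a floor of 3 UMIs for a bound. Cells were thinned to 2000 UMIs with a fixed seed. Named genes were those of the label, the Nr4a family, up to 15 called at each end, the 8 highest and 8 lowest between libraries, and listed genes of at least 100 CPM. Of the other genes named, *Cd4*, *Il5*, *Il13*, *Lgmn*, *Stx11* and *Pcyt1a* were chosen after their values were seen. *Apoe* and *Cd8a*, both under 100 CPM, were also named outside these rules, and *Cd8b1* was named beside *Cd8a* as the other CD8 chain. Some genes that meet these rules are not reported here. The members, gene lists and rules were chosen with earlier results of these data known.

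Scrublet (scanpy 1.11.5) found no doublet threshold of use (0 cells marked in both libraries), so the cells with the highest scores, at 0.8% per 1000 cells, and cells with 2 or more TRB chains were marked. They were kept in the main values and left out in an alternative. Other alternatives were *Foxp3* required, a higher *Il1rl1* threshold, 1 cell per clonotype, other scalings (TMM factors of edgeR 4.0.16, mean CPM per cell, depth weights), other filters and other clonotype definitions. The ratio code was tested on simulated counts. Python 3.11.15, pandas 2.3.3, scipy 1.17.1 and R 4.3.3 were used.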

Additional observations from a re-analysis of the deposited data

Results flagged for a closer look

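For 9 named genes that passed the 50 CPM minimum in both libraries the log2 ratio of ST2-positive over *Il1rl1* = 0 cells was above 0 in one library and below 0 in the other, with both intervals clear of 0. Of all 3190 tested genes, whatever their intervals, 27.6% were above 0 and 32.1% below 0 in both libraries, so many others also lacked a shared direction. The difference between the libraries was not tested, since each genotype was 1 library. In the library labelled WT and dKO respectively, the ratio was 0.86 and -0.13 for *Ctla4*, 0.86 and -0.31 for *Tigit*, 0.56 and -0.20 for *Icos*, 0.48 and -0.30 for *Fgl2*, and 0.29 and -0.22 for *Tnfrsf1b*, which are receptors and mediators of Tregs. It was 0.46 and -0.12 for *Odc1*, the rate-limiting enzyme of polyamine synthesis, 0.26 and -0.22 for *Ifngr1*, a chain of the interferon-γ receptor, and 0.26 and -0.15 for *Cdk8*. *Tubb5*, a β-tubulin, had the opposite order, -0.20 and 0.26. *Il10*, *Havcr2*, *Itgb8* and *Apoe*, each below that minimum in 1 of the libraries, also had opposite signs with intervals clear of 0. With *Foxp3* required in both groups each of the 9 genes kept its sign in each library, for example 0.30 and -0.29 for *Ctla4*, 0.57 and -0.33 for *Tigit* and 0.24 and -0.30 for *Icos*, and the WT intervals of *Fgl2*, *Ifngr1*, *Tnfrsf1b* and *Tubb5* then included 0.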

How the results depend on the processing

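No paired analysis was possible because each genotype was 1 library and the labels give no replicate numbers. The share of the gate with *Il1rl1* in WT and dKO (difference in percentage points) was 24.9% and 10.1% (-14.8) with *Foxp3* required, 31.7% and 11.1% (-20.6) with *Foxp3* and *Ikzf2* required, 4.89% and 2.65% (-2.24) with 2 *Il1rl1* UMIs, 14.5% and 11.7% (-2.83) with 1 cell per clonotype, and 7.01% and 5.23% (-1.78) after thinning to 1000 UMIs. After thinning to 2000 UMIs the dKO share was 9.43% (-2.79), and with at least 1000 UMIs per cell it was 8.49%. The difference kept its direction in every setting tried. Genes called higher and lower numbered 1 and 0 with *Foxp3* required, 3 and 4 with 1 cell per clonotype, 20 and 10 without marked doublets, and 637 and 129 with no CPM minimum. Genes called lower numbered 17 with 2 *Il1rl1* UMIs, 6 with mean CPM per cell, 4 with depth weights and 1 at 100 CPM. The cause of these shifts was not tested. Of 415 values of the named ratios past 2-fold under alternatives, 415 kept their direction and 375 were still past 2-fold. This total pools unlike settings. With *Foxp3* required 28 of 48 were still past 2-fold, and with 1 cell per clonotype and group 33 of 48. With TMM factors, without marked doublets or without the largest clonotype it was 48 of 48. The ratios were picked as past 2-fold in these same cells, so their kept direction is a description only. The share with an *Areg* UMI was 54.7% and 64.9% unthinned in ST2-positive cells and 21.3% and 29.8% in *Il1rl1* = 0 cells. At 1000 UMIs it was 49.5% and 23.8% in dKO, and with *Foxp3* required it was 26.7% and 39.2% in *Il1rl1* = 0 cells. The share in clonotypes of 2 or more cells became 14.9% (WT ST2-positive), 22.3% and 46.3% (*Il1rl1* = 0, WT and dKO) for 3 or more cells. By the TRB chain alone it was 55.7% (dKO ST2-positive), 40.9% and 68.0% (*Il1rl1* = 0). In WT *Il1rl1* = 0 cells it was 17% with *Foxp3* required, and in dKO 48.9% without the largest clonotype. The dKO share of ST2-positive cells with TRBV17 was 2.25% without its most common TRBV17 junction, and in WT it was 4.60%. Leaving out the largest clonotype, that junction or the 5 cells with most *Cxcl2*, and the TRBV17 shares with *Foxp3* required, were chosen after seeing the data. Pooled mice, 1 library per genotype and targeted genes that were not lower in the library labelled dKO limit every comparison of the libraries.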
